A study of Mus musculus with 3 samples.

Results

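The 44 genes described here encode proteins that carry a cell from G2 through mitosis: cyclins and CDK1, the kinases and phosphatases around it, spindle, centromere and checkpoint proteins, and the machinery that ends mitosis. They were listed by symbol and make up 44 of the 36609 genes on the array. Each was read from the probe that stood well above background on the most arrays, or from the brightest such probe, and all 44 symbols were on the array. Gene expression had been measured on 3 single-colour Agilent arrays of cultured spleen cells, 1 array per condition. The first culture had 3 h of contact with urine from the strain MRL/MpJ-Faslpr/lpr, in which Fas is defective and lupus-like autoimmunity arises (lpr urine). The second had 3 h with urine of MRL/MpJ mice (MRL/MpJ urine), and the third had 3 h with phosphate-buffered saline (PBS). All cells came from male MRL/MpJ mice aged 6 months, with an intact Fas gene, so only the urine donors differed at Fas. Urine came from males aged 6 months (n = 6), was pooled within each strain, and was spun and filtered before use.

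Entry into mitosis is driven by CDK1 bound to cyclin B, which WEE1 holds inactive by phosphorylation and CDC25 phosphatases release. Sister chromatids then separate once the spindle checkpoint lets the anaphase-promoting complex (APC/C) tag securin and cyclin B for destruction. Most of these genes are transcribed late in the cycle, through CCAAT boxes bound by NF-Y and the cell cycle genes homology region (CHR) bound by MuvB complexes, and in spleen their RNA comes mainly from dividing lymphoid and erythroid cells. The RNA of a bulk culture cannot tell fewer dividing cells from less RNA per cell.

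With 1 array per condition no test was possible, and every difference below describes these arrays. The unit is the background-subtracted fluorescence intensity, in arbitrary units. The level is its log2 value minus the array's 75th percentile, and the log2 difference is the level on one array minus that on another. To be called higher or lower, a gene had to differ at least 2-fold with both readings well above background, as the scanner software judged it. Before scaling, the 75th percentile was 75.7 units with lpr urine, 86.6 with MRL/MpJ urine and 157.5 with PBS, so a member of equal intensity on all arrays reads as higher with urine. The median of 10 spike-in probes, for synthetic transcripts added in fixed amounts, lay between 8.60 and 8.69 in log2 intensity on the 3 arrays. Scaling to them would lower each log2 difference from PBS by 1.01 with lpr urine and by 0.90 with MRL/MpJ urine. Among probes spotted repeatedly, spots within an array spread enough to give a log2 difference an SD of 0.122 at log2 intensities of 5 to 8 and of 0.372 below 5, and noise between arrays comes on top. As a check of the labelled tissue, all 8 B cell markers and all 7 T cell markers were well above background on each array.

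Of the 44 genes, 40 were measured, meaning well above background, on all 3 arrays, and none was saturated. Against PBS with lpr urine, 10 of the 40 were higher (25.0%) and 2 were lower (5.0%), where 18.5% of all 19370 genes measured on both arrays were higher and 12.0% lower. Against PBS with MRL/MpJ urine, 10 of the 40 were again higher and 2 lower, where 16.9% of 19639 genes were higher and 11.1% lower. The median log2 difference of the members was 0.46 with lpr urine and 0.50 with MRL/MpJ urine, beside 0.14 and 0.13 over all genes. Under spike-in scaling the same medians were -0.55 and -0.41, beside -0.87 and -0.78 over all genes, so the sign of the group's shift depends on the scaling. Scaling moves every gene of a comparison by the same amount, so it cannot change the group's place above the median of all genes. Both comparisons use the single PBS array, and their values are therefore given side by side without counting one as support for the other. In each comparison 28 of the 40 stayed within 2-fold (70%), where 69.6% of all genes did with lpr urine and 72.0% with MRL/MpJ urine, a share near that of the array. The members spanned log2 differences of -2.69 to 3.72 with lpr urine and of -2.38 to 3.27 with MRL/MpJ urine.

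**Figure D1:**
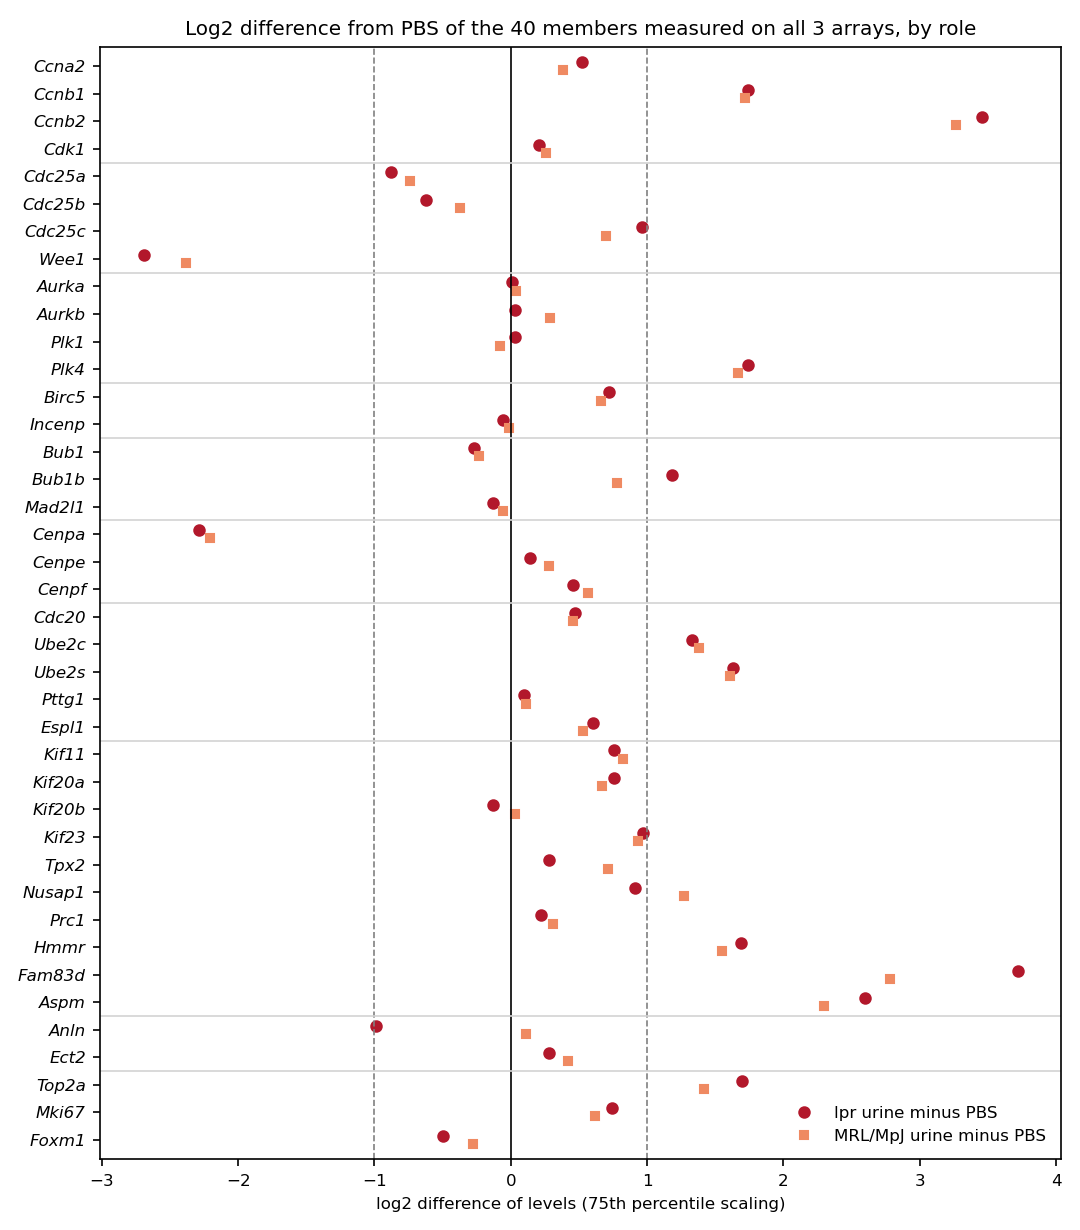
Log2 difference from PBS (horizontal axis) of each of the 40 members measured on all 3 arrays, grouped by role, with 1 point for lpr urine and 1 for MRL/MpJ urine. Ccnb2, Fam83d and Aspm lie farthest to the right and Wee1 and Cenpa farthest to the left, while 28 of the 40 lie within 2-fold of PBS in each comparison.

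Ccnb2, which encodes cyclin B2, one of the B-type partners of CDK1, read 487 units with lpr urine and 489 with MRL/MpJ urine, against 92.2 with PBS. It was 11.0-fold higher with lpr urine and 9.64-fold higher with MRL/MpJ urine, and it was the highest member with MRL/MpJ urine. Fam83d, whose protein carries casein kinase 1 to the mitotic spindle, read 96.2 units with lpr urine and 57.2 with MRL/MpJ urine, against 15.2 with PBS. It was 13.2-fold and 6.85-fold higher, the highest member with lpr urine. Aspm, a spindle pole protein whose loss causes microcephaly, read 45.8 units with lpr urine and 42.6 with MRL/MpJ urine, against 15.8 with PBS, which made it 6.04-fold and 4.91-fold higher. Its second RefSeq probe was above background on both urine arrays (8.39 and 5.59 units) and not on the PBS array. Ccnb2 and Fam83d had no other probe on the array, so their values could not be compared between probes. On these 3 genes both urine arrays stood above the PBS array before any scaling, and all 3 stayed at least 2-fold higher under every scaling tried. Normexp background correction, which compresses dim signals, lowered the log2 differences of Fam83d to 1.79 with lpr urine and 1.25 with MRL/MpJ urine, and those of Aspm to 1.18 and 1.03, just past 2-fold. Ccnb2 had 2.62 and 2.52 with it.

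Because these late-cycle promoters are known for CHR and CCAAT motifs, the windows of these 3 genes are printed with matches in capitals, together with those of Ccnb1, higher by less, Plk1, near equality, and Cenpa, lower. They are RefSeq windows on GRCm38.p6, read 5′ to 3′ along the gene from 250 bases before its start to 50 bases after it. Capitals mark the CHR element TTTGAA and the CCAAT box, on either strand, so that ATTGG and TTCAAA are matches on the opposite strand.
Ccnb2 promoter, chr9:70421505-70421804, minus strand: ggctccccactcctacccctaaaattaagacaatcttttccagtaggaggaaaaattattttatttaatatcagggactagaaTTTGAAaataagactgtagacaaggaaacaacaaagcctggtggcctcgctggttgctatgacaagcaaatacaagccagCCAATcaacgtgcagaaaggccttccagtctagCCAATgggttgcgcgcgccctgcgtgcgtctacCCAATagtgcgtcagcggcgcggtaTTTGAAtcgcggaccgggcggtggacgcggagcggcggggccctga
Fam83d promoter, chr2:158767849-158768148, plus strand: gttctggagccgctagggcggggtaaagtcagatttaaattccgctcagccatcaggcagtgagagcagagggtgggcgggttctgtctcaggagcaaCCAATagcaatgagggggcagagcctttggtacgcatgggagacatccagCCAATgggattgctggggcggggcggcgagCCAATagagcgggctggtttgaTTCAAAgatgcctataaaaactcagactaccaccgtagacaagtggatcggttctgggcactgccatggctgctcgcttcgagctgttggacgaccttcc
Aspm promoter, chr1:139454523-139454822, plus strand: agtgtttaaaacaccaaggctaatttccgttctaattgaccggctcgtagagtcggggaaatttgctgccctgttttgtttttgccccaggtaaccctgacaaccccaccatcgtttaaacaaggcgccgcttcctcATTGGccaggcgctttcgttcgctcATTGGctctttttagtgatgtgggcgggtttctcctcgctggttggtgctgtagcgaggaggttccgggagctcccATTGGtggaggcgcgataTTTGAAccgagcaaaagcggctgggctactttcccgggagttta
Ccnb1 promoter, chr13:100786437-100786736, minus strand: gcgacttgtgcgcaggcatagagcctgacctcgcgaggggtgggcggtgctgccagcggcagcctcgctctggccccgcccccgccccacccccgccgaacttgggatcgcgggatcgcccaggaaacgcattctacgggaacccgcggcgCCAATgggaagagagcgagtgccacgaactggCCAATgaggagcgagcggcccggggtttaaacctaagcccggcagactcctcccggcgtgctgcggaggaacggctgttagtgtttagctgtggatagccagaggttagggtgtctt
Plk1 promoter, chr7:122159185-122159484, plus strand: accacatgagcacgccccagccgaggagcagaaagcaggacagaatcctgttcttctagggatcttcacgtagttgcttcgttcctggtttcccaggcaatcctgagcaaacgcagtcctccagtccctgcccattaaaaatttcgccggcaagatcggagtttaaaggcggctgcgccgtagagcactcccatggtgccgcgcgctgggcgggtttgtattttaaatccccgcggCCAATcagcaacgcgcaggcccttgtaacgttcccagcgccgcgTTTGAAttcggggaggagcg
Cenpa promoter, chr5:30666636-30666935, plus strand: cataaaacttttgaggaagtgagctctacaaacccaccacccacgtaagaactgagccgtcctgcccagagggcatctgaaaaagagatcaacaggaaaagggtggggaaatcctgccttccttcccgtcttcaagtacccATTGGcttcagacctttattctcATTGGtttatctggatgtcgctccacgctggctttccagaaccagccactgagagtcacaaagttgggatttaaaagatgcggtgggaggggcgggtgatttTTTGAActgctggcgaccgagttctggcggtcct

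Ccnb1, the other mitotic B-type cyclin, read 54.0 units with lpr urine and 61.0 with MRL/MpJ urine, against 33.6 with PBS. It was 3.35-fold and 3.30-fold higher, a smaller difference than that of Ccnb2. A second probe of it was above background on both urine arrays (6.63 and 7.94 units) and not on the PBS array. Their partners did not show it: Cdk1, the kinase itself, had log2 differences of 0.21 with lpr urine and 0.26 with MRL/MpJ urine, and Ccna2, the S and G2 cyclin A2, had 0.52 and 0.38. Of the 4 genes of the cyclin and CDK1 class, then, the B cyclins alone passed 2-fold.

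Among the enzymes that switch CDK1, Wee1, the inhibitory kinase, read 6.73 units with lpr urine and 9.53 with MRL/MpJ urine, against 90.5 with PBS. It was 6.46-fold and 5.22-fold lower, and the urine readings were close to the lowest intensity called above background, which lay between 4.43 and 4.47 on the 3 arrays. With normexp correction its log2 difference was -0.60 with lpr urine and -0.65 with MRL/MpJ urine. The activating phosphatase Cdc25a read 215 units with lpr urine and 272 with MRL/MpJ urine, against 826 with PBS, which gave log2 differences of -0.88 and -0.74. Cdc25b had -0.62 and -0.37 (0.45 and 0.46 on its other probe), and Cdc25c, the classical mitotic phosphatase, had 0.96 and 0.70. Cdc25c read 9.27 units with lpr urine, 8.88 with MRL/MpJ urine and 9.94 with PBS. These readings were alike, and its differences come through the scaling. With 75th percentile scaling all 3 phosphatase genes were within 2-fold, and Wee1 alone of this class passed the threshold. That depends on the setting. Cdc25a had -1.27 with lpr urine and -1.11 with MRL/MpJ urine when scaled to the array median, and -1.89 and -1.65 when scaled to the spike-ins. With normexp correction it had -1.02 and -0.84. Cdc25b had -1.63 and -1.27 with spike-in scaling.

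Plk4, the kinase that starts centriole duplication, read 55.6 units with lpr urine and 60.7 with MRL/MpJ urine, against 34.7 with PBS, and was 3.33-fold and 3.18-fold higher. Its 2 other measured probes gave log2 differences of 0.57 and 0.49 with lpr urine and of 0.50 and 0.57 with MRL/MpJ urine, so the 2-fold difference rests on 1 of its 3 measured probes. The kinases that act within mitosis were near equality after 75th percentile scaling. Plk1, which drives mitotic entry and spindle assembly, read 77.2 units with lpr urine and 81.8 with MRL/MpJ urine, against 158 with PBS. Its log2 differences were 0.03 and -0.08. Aurka, the spindle pole Aurora kinase, had 0.01 and 0.04, and Aurkb, the centromeric one, had 0.03 and 0.29. With spike-in scaling Plk1 had -0.98 with lpr urine and -0.99 with MRL/MpJ urine, Aurka -1.0 and -0.86, and Aurkb -0.98 and -0.61. Nek2, which separates centrosomes, read 3.73 units with lpr urine, 6.55 with MRL/MpJ urine and 4.36 with PBS, and was well above background with MRL/MpJ urine alone. After 75th percentile scaling its level with MRL/MpJ urine was at least 2.66-fold above that with PBS, and its level with lpr urine at least 1.29-fold below that with MRL/MpJ urine. The unscaled readings lay closer together, and the size of the first bound comes largely from the scaling. Birc5 (survivin) and Incenp, which hold AURKB at the centromere, had log2 differences of 0.72 and -0.06 with lpr urine and of 0.66 and -0.01 with MRL/MpJ urine.

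Cenpa, the histone H3 variant that marks centromeres, was the other member lower with both urines. It read 117 units with lpr urine and 142 with MRL/MpJ urine, against 1196 with PBS, and was 4.89-fold and 4.62-fold lower. The array held 1 probe for it, which spans chr5:30974916-30975386 on mm9, more than its own length. The other centromere genes did not share the difference: Cenpe, a kinetochore motor, had log2 differences of 0.14 and 0.28, and Cenpf had 0.46 and 0.57. In the spindle checkpoint, Bub1b, which encodes the checkpoint kinase BUBR1, read 16.3 units with lpr urine and 14.3 with MRL/MpJ urine, against 15.1 with PBS. The readings were alike on the 3 arrays, and the gene passed 2-fold with lpr urine alone (2.26-fold, against 1.72-fold with MRL/MpJ urine) through the scaling. Bub1 and Mad2l1 had log2 differences of -0.27 and -0.13 with lpr urine and of -0.23 and -0.06 with MRL/MpJ urine, and Ttk, the kinase MPS1, was not well above background on any array.

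In the group that ends mitosis, the ubiquitin-conjugating enzymes of the APC/C were higher, and its activator, securin and separase were within 2-fold on the probes used. The genes of cyclin B, the other APC/C substrate named above, were higher. Ube2s, which extends ubiquitin chains, read 3017 units with lpr urine and 3420 with MRL/MpJ urine, against 2034 with PBS, and was 3.09-fold and 3.06-fold higher. Its second probe gave log2 differences of 0.97 and 0.78. Ube2c, which starts the chains, read 53.8 units with lpr urine and 63.8 with MRL/MpJ urine, against 44.7 with PBS, and was 2.51-fold and 2.59-fold higher. Cdc20, the activator, had log2 differences of 0.47 and 0.46, Pttg1 (securin) had 0.10 and 0.11, and Espl1, the separase that cuts cohesin, had 0.60 and 0.53. The core of the complex was also within 2-fold: of 12 other APC/C genes, all measured, none was 2-fold higher or lower in either comparison on the probe used, and their medians were -0.41 with lpr urine and -0.30 with MRL/MpJ urine. Other measured probes went past 2-fold for 3 of the 12: down to -3.61 and -2.96 for Anapc1, down to -2.64 and -2.88 for Cdc26, and from -1.79 to 1.87 with lpr urine and from -1.70 to 1.77 with MRL/MpJ urine for Cdc23. On the probes used, the scaffold gene Anapc2 differed most, at -0.93 and -0.97.

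Hmmr, the hyaluronan receptor that also acts in spindle assembly, read 516 units with lpr urine and 538 with MRL/MpJ urine, against 333 with PBS, and was 3.22-fold and 2.93-fold higher. Its other probes were dim and were above background on 1 and 2 of the 3 arrays. Top2a, the topoisomerase that untangles sister chromatids, read 159 units with lpr urine and 150 with MRL/MpJ urine, against 102 with PBS, and was 3.25-fold and 2.67-fold higher. Nusap1, which bundles spindle microtubules, read 26.8 units with lpr urine and 39.4 with MRL/MpJ urine, against 29.7 with PBS. It passed 2-fold with MRL/MpJ urine alone (2.42-fold, against 1.88-fold with lpr urine), and the PBS reading lay between the urine readings. Kif23, the centralspindlin kinesin, fell just short of the threshold at 0.97 with lpr urine and 0.93 with MRL/MpJ urine. The other measured kinesins and spindle proteins (Kif11, Kif20a, Kif20b, Tpx2 and Prc1) had log2 differences between -0.13 and 0.82, and Mki67, the proliferation marker Ki-67, had 0.74 and 0.62. Foxm1, a transcription factor of G2/M genes, had -0.50 and -0.28. Kif4, a chromokinesin, read 4.50 units with lpr urine, 2.87 with MRL/MpJ urine and 7.33 with PBS, and was measured with PBS alone, with no fold that the background allows. Kif2c, a microtubule depolymerase, was not well above background on any array.

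**Figure D2:**
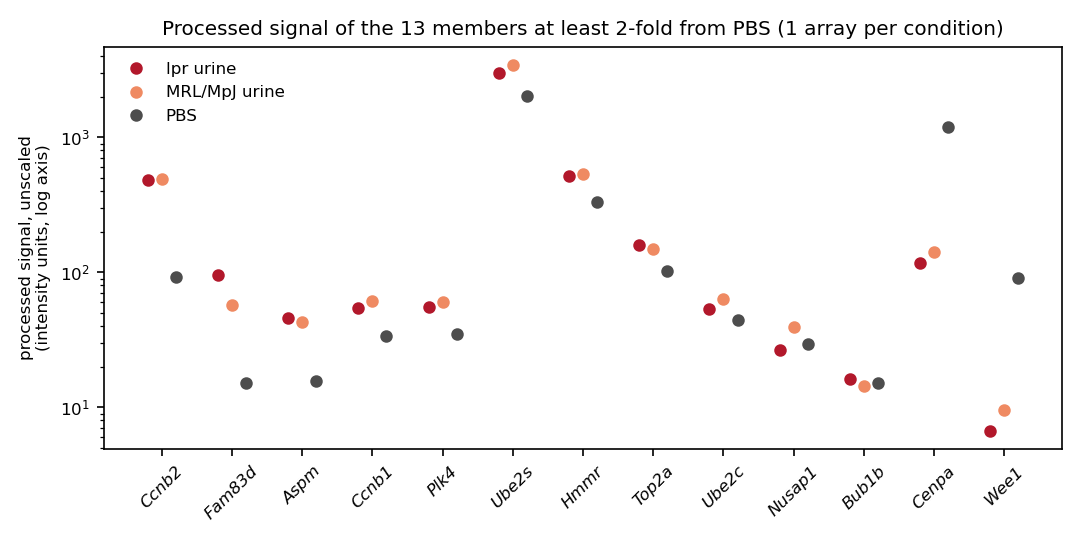
Unscaled intensity (log axis, arbitrary units) of the 13 members at least 2-fold from PBS, with 1 point each for lpr urine, MRL/MpJ urine and PBS. The 9 genes that were higher with both urines have both urine points above the PBS point, Wee1 and Cenpa have both below it, and for Bub1b and Nusap1 the PBS point lies between.

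The urine readings exceeded the PBS reading before scaling for 9 members on both arrays: Ccnb1, Ccnb2, Plk4, Ube2c, Ube2s, Hmmr, Fam83d, Aspm and Top2a. These are the 9 that were 2-fold higher with both urines. For 28 of the 40, both urine readings were below the PBS reading, and for Bub1b, Kif23 and Nusap1 the PBS reading lay between them. With spike-in scaling 3 members were at least 2-fold higher with each urine (Ccnb2, Fam83d and Aspm), while 11 were lower with lpr urine and 6 with MRL/MpJ urine. Over all genes the same scaling gave 5.48% higher and 44.7% lower with lpr urine, and 5.61% higher and 40.9% lower with MRL/MpJ urine.

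**Figure D3:**
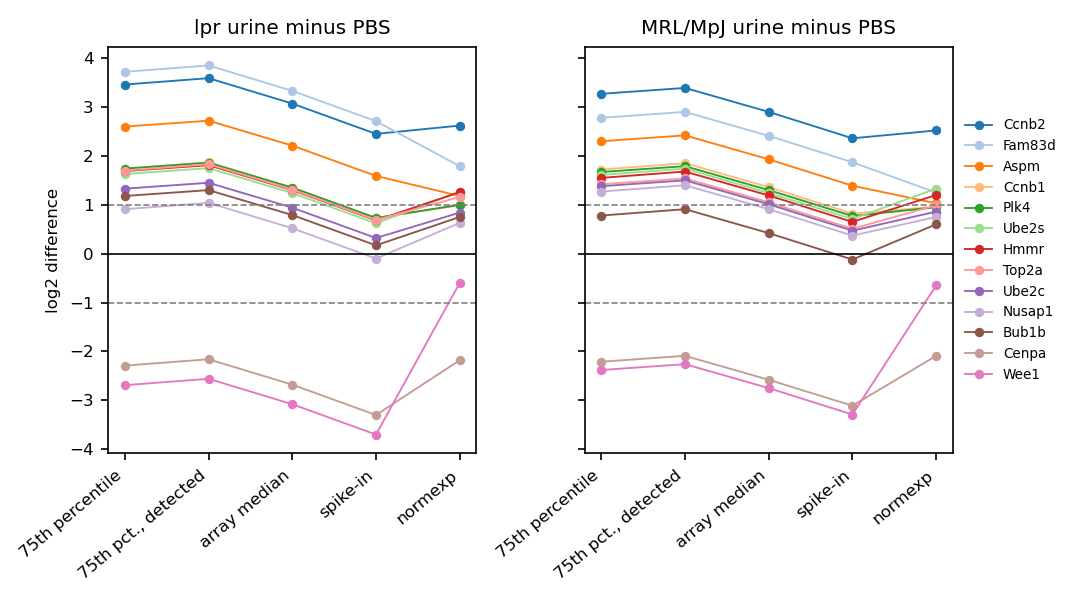
Log2 difference from PBS of the 13 members at least 2-fold from PBS (lines) under 4 scalings and normexp background correction, for lpr urine (left) and MRL/MpJ urine (right), with dashed lines at 2-fold. Ccnb2, Fam83d and Aspm stay above the upper dashed line and Cenpa below the lower one at every setting, Wee1 crosses it with normexp (-0.60 and -0.65), and the other higher members fall between 0 and 2-fold with spike-ins, apart from Nusap1 with lpr urine and Bub1b with MRL/MpJ urine, just below 0 (-0.10 and -0.12).

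The 2 urines gave near-equal readings. With lpr urine against MRL/MpJ urine, 0 of 40 members were 2-fold higher and 1 was lower, where 0.34% of 20014 genes were higher and 0.06% lower, and the members' median was -0.05. The exception was Anln (anillin), which ties actin to the cleavage furrow in cytokinesis. It read 5.58 units with lpr urine and 13.7 with MRL/MpJ urine, with 23.1 units on the PBS array. Both urine readings lay below the PBS reading. Its log2 difference was -1.10 between the urines, and relative to PBS it was -0.99 for lpr urine and 0.11 for MRL/MpJ urine. The lpr urine reading was close to the background limit, its second probe was above background on no array, and with normexp correction the difference between the urines was -0.09. Ect2, which activates RhoA at the same furrow, had -0.14 between the urines. Fam83d was the highest member in this comparison, at 0.94, just inside 2-fold.

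Several members carried more than 1 probe, and the probes did not always read alike. The 44 genes had 90 probes in all, and 17 members had several probes measured on all arrays. The measured probes gave differences of 1 sign in 13 of the 17 members with lpr urine and in 15 with MRL/MpJ urine, where 66.1% and 66.7% of 6524 genes with several measured probes did. They differed by more than 1 log2 unit in 6 of the 17 in each comparison, where 32.5% and 30.5% of those genes did. Top2a and Pttg1 spread most widely, and the first 30 of the 60 bases of their probes are printed here to show that the probes read different stretches of each gene. Positions are on mm9, from the array's annotation, and no capitals are used.
Top2a probe used, chr11:98854651-98854710, minus strand: ggtcatatagaactggttagttctagtaca
Top2a other RefSeq probe, chr11:98855522-98855581, minus strand: ttcttctgatagctctgactctgattttga
Top2a first Ensembl probe, chr11:98877908-98877967, minus strand: ctgtaagagagatttgtggaattaggctgg
Top2a second Ensembl probe, chr11:98883581-98883640, minus strand: ttgatataaagatctactggttaagtccta
Pttg1 probe used, chr11:43233801-43233860, minus strand: ccgcctgtttgttacgatgcagatatttaa
Pttg1 other RefSeq probe, chr11:43234562-43234621, minus strand: tcatgggaatctggtaagggagtccgttca

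The first Ensembl probe of Top2a, named for a transcript outside the RefSeq mRNA set and 23257 bases from the probe used, read 252 units with lpr urine and 266 with MRL/MpJ urine, against 20.3 with PBS. Its log2 differences were 4.69 and 4.58. The second, 28930 bases away, read 323 units with lpr urine and 345 with MRL/MpJ urine, against 19.6 with PBS, differences of 5.10 and 5.00. The RefSeq probes of the gene gave 1.70 and 1.26 with lpr urine and 1.42 and 1.15 with MRL/MpJ urine. All 4 probes were thus 2-fold higher with the scaling used, and the Ensembl probes by far more than the RefSeq ones. Normexp correction left the Ensembl probes at 2.77 and 3.11 with lpr urine and 2.74 and 3.07 with MRL/MpJ urine. After that correction the RefSeq probe used gave 1.16 with lpr urine and 0.99 with MRL/MpJ urine, and the other 0.77 and 0.7. Under spike-in scaling both RefSeq probes were within 2-fold (0.69 and 0.25 with lpr urine, 0.51 and 0.25 with MRL/MpJ urine). The Ensembl probes stayed past 2-fold. For Pttg1 the second RefSeq probe, 761 bases from the one used, read 53.0 units with lpr urine and 74.1 with MRL/MpJ urine, against 9.06 with PBS. It gave 3.61 and 3.90, where the probe used gave 0.10 and 0.11. Prc1, which bundles the central spindle, had an Ensembl probe that read 35.7 units with lpr urine and 43.7 with MRL/MpJ urine, against 8.93 with PBS (3.05 and 3.15), where the probe used gave 0.22 and 0.31. Kif23 had 3 further probes with 2.26, 1.30 and 1.38 with lpr urine and 2.27, 1.06 and 1.20 with MRL/MpJ urine, so each passed 2-fold where the probe used did not. Cdc20 had a second probe at 1.26 and 1.58. By the rule used here Pttg1, Prc1, Kif23 and Cdc20 counted as within 2-fold, and another probe of each was 2-fold higher with both urines. With normexp correction the second probe of Pttg1 gave 1.46 with lpr urine and 1.59 with MRL/MpJ urine and the Ensembl probe of Prc1 gave 1.21 in both, while the further probes of Kif23 were all within 2-fold (0.79 to 0.85 with lpr urine and 0.64 to 0.77 with MRL/MpJ urine). The second probe of Cdc20 gave 0.83 with lpr urine, within 2-fold, and 1.11 with MRL/MpJ urine after that correction. Gene models on mm9 were not used here, so whether a probe lies in an exon, an intron or an untranslated region is not stated.

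Of the members' measured probes, 6 carried no RefSeq mRNA accession (of Cdc25a, Kif23, Prc1 and Top2a). Their median log2 difference was 2.65 with lpr urine and 2.71 with MRL/MpJ urine, and 5 of the 6 were 2-fold higher in each comparison. The 57 probes with a RefSeq mRNA accession had medians of 0.49 and 0.57, and 15 and 14 of them were 2-fold higher. Over all genes that have both kinds, 19.4% of 3616 measured probes without such an accession were 2-fold higher with lpr urine and 22.7% lower, and 18.8% and 21.9% with MRL/MpJ urine. Of 18740 measured probes with one, 13% were higher and 13% lower with lpr urine, and 12.1% and 11.7% with MRL/MpJ urine. What these probes detect was not tested.

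**Figure D4:**
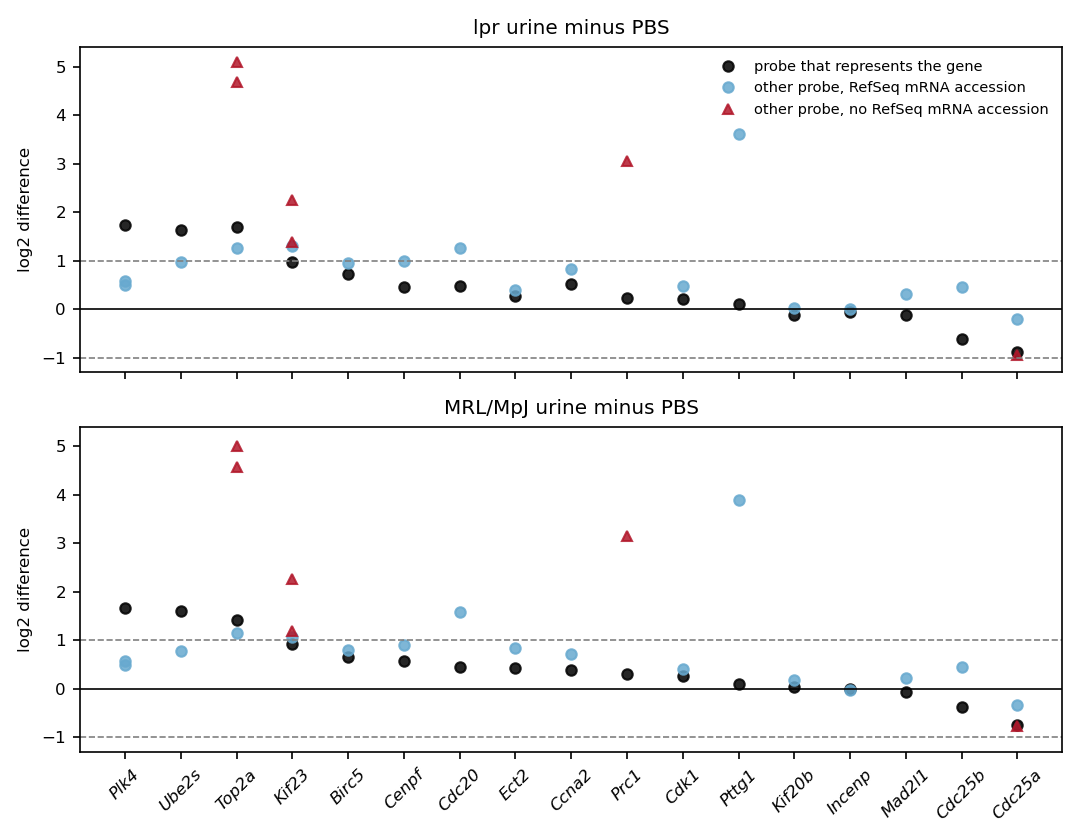
Log2 difference from PBS of every probe measured on all 3 arrays for the members with several such probes, in the upper panel for lpr urine and in the lower for MRL/MpJ urine. The probe used is black, other RefSeq probes are blue circles and probes without a RefSeq mRNA accession red triangles. The probes of Top2a, Pttg1 and Prc1 spread over the widest ranges, and those of most other members lie close together.

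CHR and CCAAT letters were frequent in the promoters of these genes, and the CHR element was about as frequent in the 9 higher members as in the rest. RefSeq windows were given for 36 of the 44 members and for 27025 genes in all. The CHR element TTTGAA was present in 24 of the 36 (66.7%), where 20.2% of all genes had it, and in 22 of the 36 (61.1%) it lay within 50 bases of the start, where 5.94% of all genes did. Its variant, spelled TTCGAA and not overlapping it, was present in 5 members (13.9%, against 1.80% of all genes). A CCAAT box was present in 27 (75%, against 41.1%), both a CHR element and a CCAAT box in 21 (58.3%, against 7.97%), and at least 2 CCAAT boxes in 19 (52.8%, against 13.3%). Among CHR elements within 50 bases of the start that had a CCAAT box upstream in the window, each counted once, the centres of the nearest pair were a median of 33.0 bases apart, over 20 elements (range 9.5 to 153.5).

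The element was present in 6 of the 9 members higher with both urines (66.7%), in 15 of the other 23 measured on all arrays (65.2%), and in 3 of the 4 not measured on all of them. At least 1 CCAAT box was present in 7 of the 9 higher members (27 of all 36), and at least 2 boxes also in 7 (19 of all 36). These shares were not tested. In the printed windows, Ccnb2 holds CHR elements with first bases at -167 and 5 from the start, and its CCAAT boxes at -87, -54 and -21 lie between them. Aspm holds 1 at 7, and Fam83d holds 1 at -50 on the opposite strand. Ccnb1, also higher with both urines, has none of these letters in its window and 2 CCAAT boxes. Plk1, near equality, holds a CHR element at 31 behind a CCAAT box at -14, and Cenpa, which was lower, holds 1 at 17 behind boxes at -109 and -86. A match describes the letters of the window and does not show that a factor binds there.

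**Figure D5:**
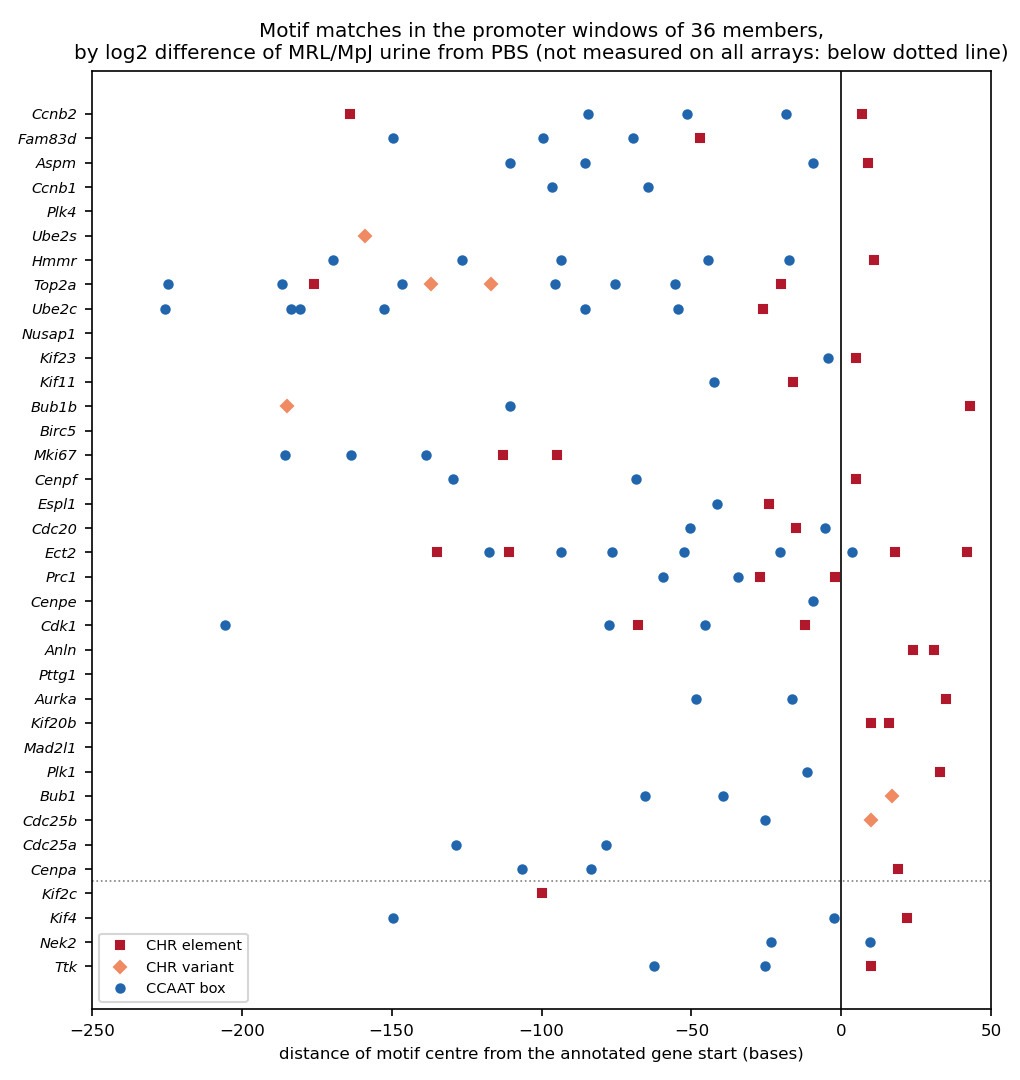
Position of each CHR element, CHR variant and CCAAT box in the promoter windows of 36 members (horizontal axis, bases from the annotated gene start), with members ordered by their log2 difference of MRL/MpJ urine from PBS. Ect2 and Prc1 have 2 overlapping windows each, so their motifs are drawn for both starts. CHR elements gather around the start in members at the top, middle and bottom of the order alike, and the members below the dotted line were not measured on all arrays.

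Other genes of the same processes are given by function, on the probes used, and their counts read against the shares over all genes (18.5% higher and 12.0% lower with lpr urine, 16.9% and 11.1% with MRL/MpJ urine). Like the members, these lists were chosen with earlier results known, and no list was tested. Of the kinetochore genes measured on both arrays, 2 of 18 were higher and 1 lower with lpr urine, and 5 of 19 higher and 1 lower with MRL/MpJ urine. Ska3, which holds kinetochores to microtubules, had 3.37 and 3.35, and Ndc80, the main microtubule coupler, had -1.25 and -1.53. Spag5 (astrin) had 1.49 and 1.31. Of 30 further mitotic genes 7 were higher and 2 lower in each comparison, among them Cks2, a CDK1-binding subunit, at 2.79 with lpr urine and 2.32 with MRL/MpJ urine (4.77 and 4.94 on its other probe). Kif14, a cytokinesis kinesin, had 2.06 and 2.08, Psrc1, a spindle protein, had 2.40 and 1.53, and Lmnb1 (lamin B1) had -1.49 and -1.51. Condensin and cohesin genes were higher in 0 of 17 in both, and lower in 2 with lpr urine and in 1 with MRL/MpJ urine. Smc4 was lower in both (-1.09 and -1.16), with other measured probes up to -0.66 and -0.68. Of 17 DNA replication genes 3 were higher and 3 lower in each, with Cdc45, a helicase subunit, at 3.07 and 3.14 (0.92 and 0.57 on its other probe) and Cdt1, which loads the helicase, at -1.77 and -1.70. Rrm2, a subunit of ribonucleotide reductase, had 1.73 and 1.68. Of 13 G1 and S phase genes 2 were higher with lpr urine and 3 with MRL/MpJ urine, with 1 lower in each. Ccne1 (cyclin E1) had 1.84 and 1.67, and Cdk6, a G1 kinase, had -1.36 and -1.29. Some of these genes were dim on at least 1 array, where the size of a difference is uncertain. With PBS, Ska3 read 9.47 units, Kif14 6.21 and Cdc45 8.16. Ndc80 read 12.0 units with lpr urine and 11.4 with MRL/MpJ urine.

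Of 19 cell cycle brakes measured with lpr urine 8 were higher and 2 lower, and of 18 measured with MRL/MpJ urine 7 were higher and 2 lower. Gadd45g, a stress-induced growth inhibitor, read 56521 units with lpr urine and 65072 with MRL/MpJ urine, against 626 with PBS (7.55 and 7.56). Its relatives Gadd45a and Gadd45b had 3.95 and 3.97 with lpr urine and 3.73 and 4.03 with MRL/MpJ urine, and the stress-induced kinase gene Plk2 had 3.56 and 3.92. Cdkn1c, the inhibitor p57, had 3.56 and 3.58, and Cdkn1b, the inhibitor p27, had -1.68 and -1.79 (-0.67 and -0.78 on its other probe). Of 13 genes of the DREAM and MuvB complexes and NF-Y, none was higher and 1, Lin54, was lower (-1.05 with lpr urine and -1.20 with MRL/MpJ urine). Other measured probes read up to 2.11 and 1.89 for Tfdp2, down to -1.33 and -1.24 for Lin9, and down to -1.08 and -0.81 for Nfyb. Those of Lin54 read up to -0.07 and -0.64.

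After 75th percentile scaling, summed markers of the spleen's cell types also differed between the arrays. That percentile was higher on the PBS array (157.5 units, against 75.7 with lpr urine and 86.6 with MRL/MpJ urine). A sum of equal intensity on all arrays therefore reads as higher with urine. Summed intensities over the array's 75th percentile for the 8 B cell markers were 415 with lpr urine and 441 with MRL/MpJ urine, against 224 with PBS. The 7 T cell markers summed to 216 with lpr urine and 202 with MRL/MpJ urine, against 186 with PBS, and the 7 monocyte and macrophage markers to 85.1 and 96.5, against 56.8. The 6 germinal centre B cell markers, of a population that divides in spleen, summed to 14.0 with lpr urine and 13.6 with MRL/MpJ urine, against 2.79 with PBS. Most of that sum was Bcl6, which is also expressed outside that population. On the probe summed, Bcl6 had log2 differences of 2.63 with lpr urine and 2.59 with MRL/MpJ urine, and on its other measured probe -1.24 and -1.55. Of the other markers measured on all arrays, S1pr2 had -1.59 and -1.14, and Mybl1 had 1.31 and 0.97. The markers above background numbered 3 with lpr urine and 5 with MRL/MpJ urine, against 6 with PBS. The 8 erythroid markers, of cells that also divide in mouse spleen, summed to 214 with lpr urine and 198 with MRL/MpJ urine, against 162 with PBS, with 7 of the 8 above background on each array. Plasma cell markers summed to 132 with lpr urine and 135 with MRL/MpJ urine, against 72.6 with PBS, neutrophil markers to 494 and 470, against 275 with PBS, and platelet markers to 2.20 and 1.90, against 1.41 with PBS. The part of cell makeup in the members' values was not tested.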

How the data were processed

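RNA of 3 cultures was read on 1-colour (Cy3) Agilent arrays, 1 per condition. Per the file headers, the deposited intensity values were background-subtracted within each array by Agilent Feature Extraction 12.0.3.1, which the submitters' processing notes also name, and were not scaled between arrays. Control and outlier spots were left out and repeated spots averaged, which left 56599 probes. Levels were log2 intensity minus the array's 75th percentile. Alternatives were the array median, E1A spike-ins, the percentile over detected probes, normexp (limma 3.58.1, R 4.3.3, offset 50), a brightness filter, the mean of probes and a 1.5-fold threshold. Computation used Python 3.11.15, numpy 2.4.6 and pandas 2.3.3, and was tested on simulated data. Named genes were all members, in full where 2-fold apart or measured on 1 array of a pair, and up to 4 of the largest differences per other list. Members and lists were chosen with earlier results of these data known. Promoters came from RefSeq (GRCm38.p6), and probe positions (mm9) from the file headers' annotation. The labels do not say whether cells came from 1 spleen or several.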

Additional observations from a re-analysis of the deposited data

Results flagged for a closer look

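Anln differed by -1.10 in log2 between lpr urine and MRL/MpJ urine, and it drew attention for this difference between the 2 urines. Its scaled differences from PBS had opposite signs, -0.99 with lpr urine and 0.11 with MRL/MpJ urine. The value of 0.11 is smaller than the repeat-spot SD of 0.372 at these intensities. The signs were again opposite with the percentile over detected probes (-0.86 and 0.23) and alike with array median scaling (-1.38 and -0.26), spike-in scaling (-2.0 and -0.80) and normexp (0.30 and 0.39). The difference was not tested, since each condition had 1 array.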

How the results depend on the processing

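With lpr urine against PBS, 10 members were higher and 2 lower. The higher count was 3 with spike-in scaling, 6 with normexp, 5 with the brightness filter and 18 at 1.5-fold. The lower count was 5 with array median scaling, 11 with spike-in scaling, 1 with the brightness filter and 5 at 1.5-fold. With MRL/MpJ urine against PBS, also 10 and 2, the higher count was 3, 5, 4 and 18 under those 4 settings, and the lower count was 6 with spike-in scaling, 1 with normexp and 1 with the brightness filter. Over all genes with lpr urine, 11.1% were higher and 22.1% lower with array median scaling, 5.48% and 44.7% with spike-in scaling, and 7.32% and 9.66% with normexp. With MRL/MpJ urine these shares were 10.6% and 21.0%, 5.61% and 40.9%, and 6.97% and 8.23%. Shares over all genes are not given here for the brightness filter and the 1.5-fold threshold. The median log2 difference with lpr urine (0.46) was 0.07 with array median scaling, -0.55 with spike-in scaling, 0.58 with the percentile over detected probes, 0.73 with the mean of probes and 0.60 with the brightness filter. With MRL/MpJ urine (0.50) it was 0.13, -0.41, 0.62, 0.68 and 0.29 under the same settings. Over all genes, array median scaling gave medians of -0.25 and -0.24, spike-in scaling -0.87 and -0.78, and normexp 0.33 and 0.30. Between lpr and MRL/MpJ urine, 1 member was higher at 1.5-fold, none was lower with normexp (0) or the brightness filter (0), and the median (-0.05) was -0.15 with spike-in scaling, 0.03 with normexp and 0.01 with the brightness filter. The 12 members called in each comparison with PBS kept their sign under the 3 other scalings, normexp and the mean of probes. For the scalings this was nearly fixed in advance, since calls were at least 1 log2 unit from PBS and the largest shift was -1.01. With spike-ins 5 of 12 stayed past 2-fold in each, and with normexp 8 with lpr urine and 6 with MRL/MpJ urine did. No paired analysis was possible because each condition had 1 array. The sizes for members dim on at least 1 array, such as Wee1, Anln, Fam83d and Aspm, depend on the background correction.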
